A study of Mus musculus with 2 samples.

Results

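Alternative last exons were examined in annotated, spliced transcripts of mouse gastrocnemius, the large calf muscle. The last exon of a transcript was identified by the acceptor site of its last intron, and reads were summed per gene and last acceptor. A gene was kept when at least 2 of its last acceptors each held at least 10 reads in each library. This left 64 genes with 129 last acceptors, of 11135 genes with 12468 last acceptors that had spliced annotated reads. Of the 64 genes, 63 had 2 such acceptors and Tcf25 had 3. The genes were chosen by these read counts, so the presence of a second last exon is a description and not a result.

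The data were long reads of RNA from 1 group of 2 libraries, replicate 2 and replicate 1, of adult male B6CASTF1/J gastrocnemius at an age of 18 to 20 months. Each library took 2 µg of total RNA and carried spike-in RNAs, which were left out. B6CASTF1/J is the first-generation cross of the C57BL/6J and CAST/EiJ strains, and allele of origin was not assigned here. The labels call them biological replicates with separate biosamples but 1 donor entry, and do not say whether each stands for 1 mouse, and there is no second condition. Each test below sets 1 library against the other and treats reads as independent, so its p-value covers counting error only, says nothing of the spread between mice, and has no replicate check.

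Replicate 2 held 1173233 reads and replicate 1 held 1509380. Spliced annotated transcripts took 663759 and 896160 of them, and the 129 last acceptors held 9071 reads in replicate 2 and 9202 in replicate 1, or 1.37% and 1.03% of those spliced annotated reads. A gene of the set had a median of 97.5 reads in replicate 2, with a range of 24 to 556, and 94.5 reads in replicate 1, with a range of 22 to 890. At such depths a share of reads has a wide interval, and the 95% Clopper-Pearson intervals given here cover counting error only. All 6 markers of fast fibres had reads and summed to 137097 counts per 1000000 reads (CPM) in replicate 2 and 167014 CPM in replicate 1. All 5 slow-fibre markers summed to 3410 CPM in replicate 2 against 216 CPM in replicate 1. In bulk tissue, fewer cells of a type and less RNA per cell cannot be told apart.

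The last exon of a messenger RNA carries the site of cleavage and polyadenylation, most often the stop codon, and the 3′ untranslated region. A gene can offer several last exons, either because polyadenylation in an intron is used before that intron is spliced, or because the last donor is joined to another acceptor. The choice can change the carboxy terminus of the protein, its 3′ untranslated region, or both. Some pairs of this set kept their stop codon and ended at nearly the same base, among them those of Ankrd9 and Rnf10. In muscle the calcium pump gene Atp2a2 and the tropomyosin genes are textbook cases.

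The coding tails below are shown because in these genes the choice of last exon writes a different end of the protein. They come from the GENCODE M21 transcripts (GRCm38), run 5′ to 3′ to the stop codon, and have in capitals the bases that are not exonic in the other model of the pair. Some tails include shared bases before the point of divergence, in lower case. Each name is followed by the position of the printed bases.
Atp2a2-201 (chr5:122457151-122457314, minus strand): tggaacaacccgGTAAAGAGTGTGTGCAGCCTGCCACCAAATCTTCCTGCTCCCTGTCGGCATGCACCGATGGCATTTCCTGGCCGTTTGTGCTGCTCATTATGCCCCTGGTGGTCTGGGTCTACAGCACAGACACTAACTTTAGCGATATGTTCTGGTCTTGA
Atp2a2-202 (chr5:122454291-122454304, minus strand): CAATACTGGAGTAA
Lmna-201 (chr3:88482074-88482100, minus strand): AGCTCCCAGAACTGCAGCATCATGTAA
Lamp2-202 (chrX:38421712-38421851, minus strand): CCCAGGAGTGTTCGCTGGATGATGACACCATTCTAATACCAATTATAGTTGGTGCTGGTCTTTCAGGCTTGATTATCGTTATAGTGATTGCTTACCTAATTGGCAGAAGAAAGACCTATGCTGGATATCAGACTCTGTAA
Lamp2-201 (chrX:38405432-38405571, minus strand): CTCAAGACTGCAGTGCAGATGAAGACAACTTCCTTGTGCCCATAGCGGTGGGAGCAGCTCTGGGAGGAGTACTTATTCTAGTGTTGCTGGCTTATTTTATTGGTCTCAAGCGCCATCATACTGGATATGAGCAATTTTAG
Tpm3-201 (chr3:90099528-90099610, plus strand): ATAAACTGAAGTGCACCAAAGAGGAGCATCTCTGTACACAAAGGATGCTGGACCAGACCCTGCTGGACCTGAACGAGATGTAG
Homer1-204 (chr13:93356068-93356113, plus strand): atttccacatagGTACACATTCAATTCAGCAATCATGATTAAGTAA
Ghr-203 (chr15:3327604-3327686, minus strand): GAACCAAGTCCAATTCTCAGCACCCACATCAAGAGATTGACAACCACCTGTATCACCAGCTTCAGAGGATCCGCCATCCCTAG
Ppp1cc-202 (chr5:122174055-122174144, plus strand): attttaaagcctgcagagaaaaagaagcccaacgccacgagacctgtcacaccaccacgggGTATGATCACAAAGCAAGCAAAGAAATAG
Gart-202 (chr16:91633871-91633886, minus strand): ccagcggcccagGTAA

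A second set of sequences is shown because 6 genes had last acceptors at most 5 bases apart, so that the junctions of a pair differ by those bases alone. Each line gives 12 bases of the exon before the last junction in lower case and the first 18 bases of the last exon in capitals, upstream acceptor first, with the position of the capitals.
Rnf10-202 (chr5:115242044-115242061, minus strand): accccctctctgAAGACAGAGGAGGGAAGA
Rnf10-201 (chr5:115242041-115242058, minus strand): accccctctctgACAGAGGAGGGAAGAAAA
Ctbp1-201 (chr5:33248669-33248686, minus strand): ggctgcctacagCAGGTACCCTCCAGGCGT
Ctbp1-211 (chr5:33248666-33248683, minus strand): ggctgcctacagGTACCCTCCAGGCGTCGT
Hoxd8-201 (chr2:74706514-74706531, plus strand): tgagaccacaagCAGCTCCTGGTAGACGGA
Hoxd8-202 (chr2:74706517-74706534, plus strand): tgagaccacaagCTCCTGGTAGACGGAGAG
Vgll2-202 (chr10:52027431-52027448, plus strand): gaccctggagagCAGAAGGCACCTTCCCGA
Vgll2-201 (chr10:52027434-52027451, plus strand): gaccctggagagAAGGCACCTTCCCGATGA
Cdc34-201 (chr10:79687849-79687866, plus strand): ggacatcatccgGAAGCAGGTCCTGGGGAC
Cdc34-205 (chr10:79687853-79687870, plus strand): ggacatcatccgCAGGTCCTGGGGACCAAG
Mapk9-209 (chr11:49883142-49883159, plus strand): accagccttcagCACAGATGCAGCAGTAAG
Mapk9-201 (chr11:49883147-49883164, plus strand): accagccttcagATGCAGCAGTAAGTAGCA

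In all 6 genes the extra bases of the upstream acceptor end in AG, the dinucleotide at the end of an intron, so the downstream acceptor also follows an AG. The distance was 3 bases in Rnf10, Ctbp1, Hoxd8 and Vgll2, 4 in Cdc34 and 5 in Mapk9. A distance of 3 bases keeps the reading frame, and those 4 pairs of models share their stop codon. The pairs of Cdc34 and Mapk9 have different stop codons.

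The 2 most-read last exons of a gene fell into 5 arrangements. In 16 genes they overlapped because the upstream model retained the last intron of the downstream one. In 12 genes they overlapped through an alternative acceptor joined to the same donor. In 10 genes they were separate exons joined to 1 donor, and in 18 genes the upstream last exon was an internal exon of the downstream model that ran on past its donor. The other 8 genes had separate last exons of other arrangements. Acceptors lay a median of 1898 bases apart, with a range of 3 in the tandem acceptors to 116145 in Stau2, and 14 genes had them over 10000 bases apart. The drawing of exons shows 1 gene of each arrangement.

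**Figure D1:**
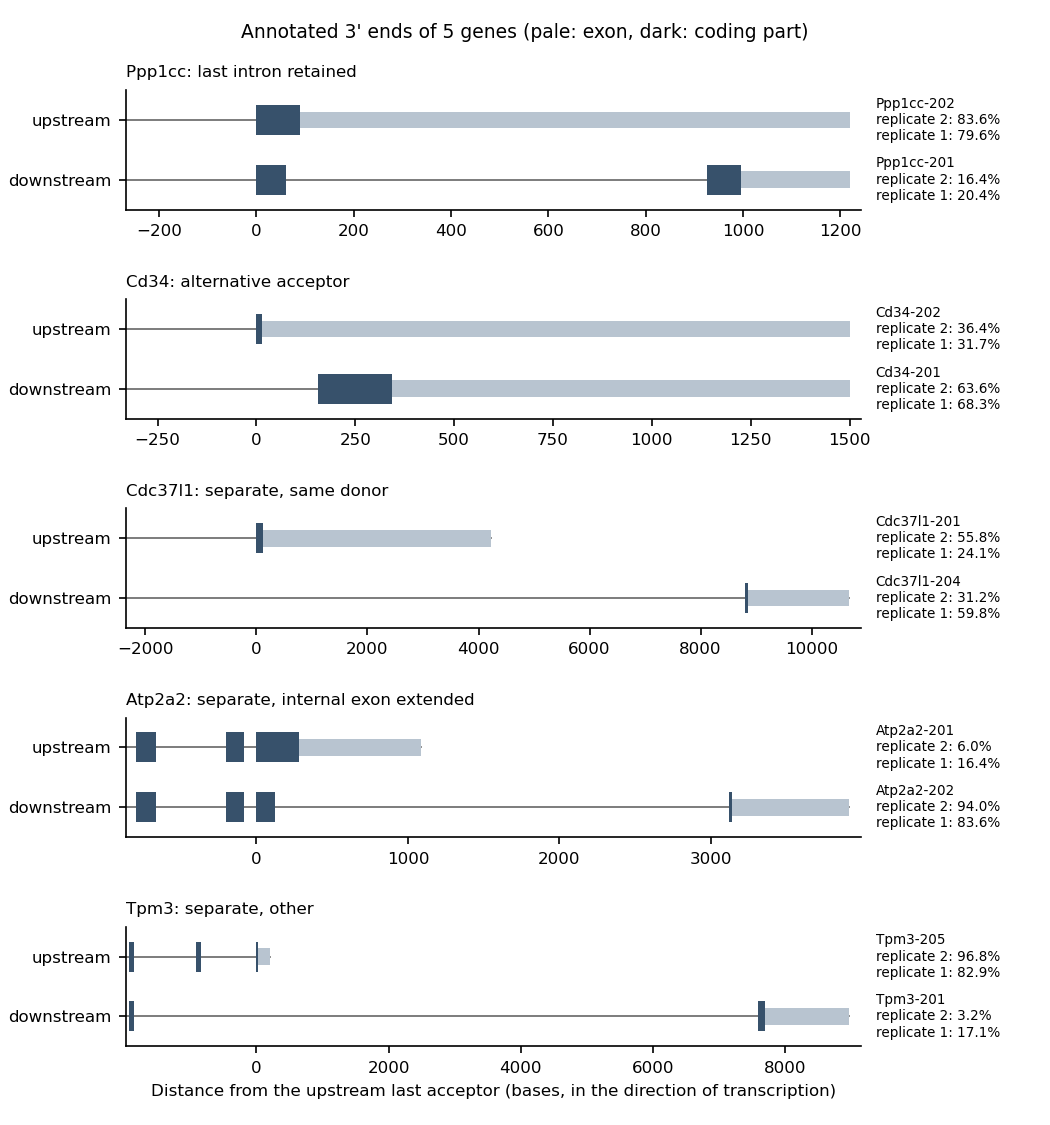
Annotated 3′ ends of 1 gene per arrangement, drawn to scale against the distance in bases from the upstream last acceptor; pale boxes are exons, dark boxes are coding parts, and the share of reads at each acceptor stands on the right. In Ppp1cc the upstream model keeps the last intron, in Cd34 the acceptors are 156 bases apart, and in Tpm3 the downstream last exon lies 7597 bases away.

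Most pairs of models parted once and shared no intron after that. In 59 of the 64 genes the most-read models of the acceptors had the same first donor and shared no intron past their first difference. In Cavin1, Hoxd8 and Polr1d, counted among the 59, that difference was in the first intron. The difference need not lie at the 3′ end. Both models of Ankrd9 have all 981 coding bases in the last exon, the same stop codon and ends 2 bases apart. In Tpm3, Eif4e2 and Pnkd the models also began at another first donor, and in Ctbp1 and Mef2c they differed in introns further upstream as well. The models of Srsf10, counted among the 59, share the first 3 of their 5 introns, so they part ahead of their common last donor. Different stop codons were annotated in 42 genes, the same coding part in 13, and the same stop codon after a different coding part in 5. In Cavin1, Ndufa7, Ppm1a and B230354K17Rik at least 1 of the models had no annotated coding part.

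The downstream acceptor held a median of 51.3% of the pair's reads in replicate 2 and 57.5% in replicate 1, and it led in both libraries in 29 genes, against 23 genes in which the upstream acceptor led in both. By arrangement, the median downstream share, averaged over the libraries, was 73.9% for extended internal exons, 55.7% for retained last introns, 49.0% for alternative acceptors, 45.4% for other separate exons and 44.9% for exons on 1 donor. The range within each arrangement was wide, for example 15.5% in Trak1 to 95.7% in Ppm1a among the extended internal exons. The same acceptor led in both libraries in 53 genes, a count that includes Dnm2, whose acceptors were tied in both, and another one led in 11. Downstream shares correlated between the libraries with Pearson's r = 0.927 across the 64 genes, a description across genes that share their library and their annotation.

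These shares count annotated transcripts alone, by the model to which each read was assigned. In extended internal exons and retained last introns, the upstream model had no intron that the downstream model lacked. Read ends were not available, so a downstream-form read cut short inside the upstream last exon cannot be told from the upstream form. How many such reads there were was not measured. When incomplete and unannotated spliced models with an annotated last acceptor were added, the leading share, averaged over the libraries, moved by at most 5 points in 48 of the 64 genes and by over 10 points in 7. The 7 were Cyhr1, with -40.7 points, Mef2c, Slc35a4 and Trak1, with -13.5, -11.4 and -11.0 points, and Qk, Eif4e2 and Ctbp1, with 12.5, 18.0 and 27.4 points. The leading acceptor was no longer the most-read one in Cyhr1, Lmna, Mef2c, Ppil2 and Slc35a4.

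**Figure D2:**
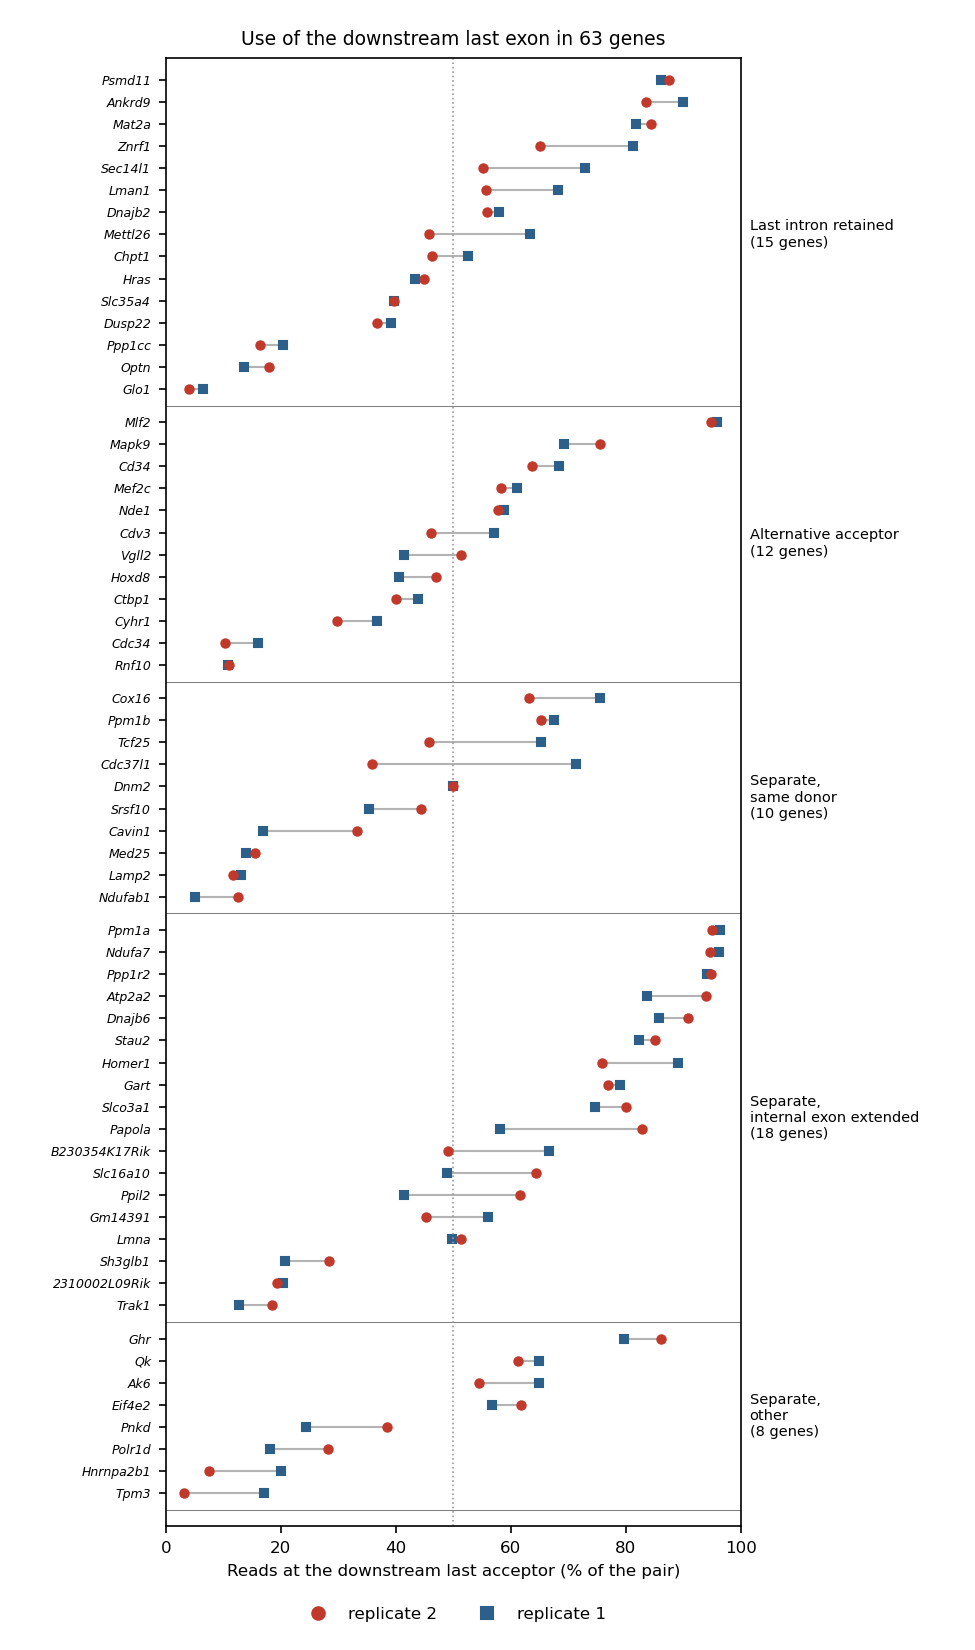
Share of the pair's reads at the downstream last acceptor in 63 genes of the set, in percent, by arrangement; circles are replicate 2, squares replicate 1, and the dotted line marks 50%. The shares cover nearly the whole axis within most arrangements, and the libraries lie furthest apart in Cdc37l1, with 35.8% in replicate 2 and 71.2% in replicate 1.

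The second acceptor held a median of 27.5% of a gene's reads, at least 20% in both libraries in 35 genes, at least 40% in both in 9 genes, and under 10% in at least 1 library in 12 genes. Equal pair counts were found in Dnm2, dynamin 2, a GTPase of membrane fission that is mutated in a human centronuclear myopathy. Its acceptors had 12 and 12 reads in replicate 2 and 11 and 11 reads in replicate 1. The Dnm2 counts are near the minimum of 10, and the 95% interval of the share of Dnm2-202 was 27.8% to 68.7% in replicate 2. Over all spliced models with an annotated last acceptor its share was 36.7% of 79 reads in replicate 2 and 47.5% of 61 in replicate 1.

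Lmna, which encodes the A-type lamins of the nuclear envelope, had nearly equal shares. Its short model Lmna-203 (last exon chr3:88483205-88483413) codes for lamin C, and Lmna-201 (last exon chr3:88481148-88482100) codes for prelamin A, whose printed tail ends in the farnesylation motif. The lamin C exon took 89 reads of replicate 2 and 85 of replicate 1, while the prelamin A exon took 94 of replicate 2 and 84 of replicate 1. Prelamin A thus took 51.4% (95% interval 43.9 to 58.8) in replicate 2 and 49.7% (41.9 to 57.5) in replicate 1. When reads of incomplete and unannotated spliced models with an annotated last acceptor were added, the prelamin A share was 42.9% in replicate 2 and 41.5% in replicate 1. Prelamin A reads cut short in the exon that lamin C extends count as lamin C in that alternative, and their number was not measured.

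Atp2a2, the calcium pump of the slow-fibre sarcoplasmic reticulum, had the textbook choice of last exons. The downstream exon of Atp2a2-202 (chr5:122453514-122454304) ends the muscle pump SERCA2a after a short tail, and the extended upstream exon of Atp2a2-201 (chr5:122456340-122457426) adds the long luminal tail of the ubiquitous SERCA2b, as the printed sequences show. Reads at the muscle exon numbered 515 in replicate 2 and 56 in replicate 1, beside 33 in replicate 2 and 11 in replicate 1 at the ubiquitous exon. The muscle exon therefore led with 94.0% (91.6 to 95.8) in replicate 2 and 83.6% (72.5 to 91.5) in replicate 1. This difference did not pass the test of usage described below (unadjusted p = 0.00465, adjusted p = 0.220 by Fisher's exact test with Benjamini-Hochberg adjustment).

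Models of Homer1, Gart, Papola and Dnajb6 also end early in an extended internal exon, and these genes were named after their values were seen. As said above, reads of the long model cut short in that exon cannot be told from the early form. Homer1-204, the short Homer1a form that lacks the coiled coil by which Homer scaffolds assemble, had 41 of 170 reads in replicate 2 (24.1%) and 14 of 128 in replicate 1 (10.9%). The long Homer1-201, with 354 codons against 186 in the short form, led in both libraries, and its difference did not pass (unadjusted p = 0.00402, adjusted p = 0.220, Fisher's exact test). Gart, a purine synthesis gene whose full product carries 3 enzyme activities, had 23.2% of reads in replicate 2 and 21.1% in replicate 1 at the early exon that stops after 433 of 1010 codons. The printed Gart tail reaches its stop codon with the first bases past the donor.

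Papola, the gene of poly(A) polymerase alpha itself, had an early last exon that ends its coding part at 293 codons, against 739 for the full model. The full-length exon held 48 reads in replicate 2 and 25 in replicate 1, and the early exon 10 reads in replicate 2 and 18 in replicate 1. The full-length share was 82.8% in replicate 2 and 56.8% in replicate 1 (unadjusted p = 0.00722, adjusted p = 0.312, Fisher's exact test), so it did not pass. Over all spliced models with an annotated last acceptor it was 83.0% of 88 reads in replicate 2 and 73.1% of 78 in replicate 1, a narrower gap. Dnajb6, a co-chaperone mutated in a human limb-girdle muscular dystrophy, used the exon of its long form for 90.7% of reads in replicate 2 and 85.7% in replicate 1. The short form, which is the one known at the sarcomeric Z-disc, held 10 reads in replicate 2 and 21 in replicate 1.

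Of the other genes of this arrangement, Ndufa7, Ppm1a, Ppp1r2, Stau2 and Slco3a1 were led by the downstream exon in both libraries. In Ndufa7, a small subunit of respiratory complex I and one of the most-read genes, the full model took 176 of 186 reads in replicate 2 (94.6%) and 356 of 370 in replicate 1 (96.2%). Ppm1a and Ppp1r2 were as one-sided, with 95.0% and 94.8% of the pair's reads downstream in replicate 2 and 96.3% and 94.1% in replicate 1. Stau2 and Slco3a1 followed, with 85.1% and 80.0% in replicate 2 and 82.2% and 74.6% in replicate 1. The upstream exon led in Trak1, 2310002L09Rik and Sh3glb1, where the downstream share was 18.4%, 19.3% and 28.3% in replicate 2 and 12.7%, 20.3% and 20.7% in replicate 1. Slc16a10, an aromatic amino acid transporter, had 64.3% of reads downstream in replicate 2 and 48.9% in replicate 1. Its difference and that of Sh3glb1, which codes for endophilin B1, had unadjusted p-values of 0.0483 and 0.043 and adjusted values of 1 (Fisher's exact test). Ppil2 and B230354K17Rik had 61.5% and 49.0% downstream in replicate 2 and 41.4% and 66.7% in replicate 1. These genes other than Ndufa7 were named after their values were seen.

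An extended exon runs past a donor that the other model uses. In the 34 genes with an extended internal exon or a retained last intron, the base after that donor began the dinucleotide GT in 33 and GC in 1, which was Ankrd9. Of the 34 donors, 9 were followed by GTAAG or GTGAG, and other donors were not counted beside them. The exon ran on for a median of 1140.5 bases past the donor in extended internal exons, with the shortest run, 47 bases, in Papola and the longest, 4383 bases, in Homer1.

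Among separate last exons of other arrangements, Tpm3 had the most reads. Tpm3-205 (last exon chr3:90091931-90092130, 4 coding bases) is the slow skeletal alpha-tropomyosin, which lies along the actin filament of slow fibres, and Tpm3-201 (last exon chr3:90099528-90100901, 83 coding bases printed above) is a shorter cytoplasmic tropomyosin. Reads at the muscle exon numbered 538 in replicate 2 and 68 in replicate 1, beside 18 in replicate 2 and 14 in replicate 1 at the cytoplasmic exon. The muscle exon was far ahead in both libraries, and its share was higher in replicate 2, at 96.8% (94.9 to 98.1), than in replicate 1, at 82.9% (73.0 to 90.3). The intervals of the libraries do not overlap, and the difference of 13.8 percentage points passed the test (adjusted p = 0.00416, Fisher's exact test).

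Ghr, the growth hormone receptor gene, and Qk, an RNA-binding regulator of splicing, were named after their values were seen. Ghr-203, which ends in a short exon in place of the membrane anchor and codes for the soluble growth hormone binding protein, held 25 reads in replicate 2 (13.9%) and 38 in replicate 1 (20.1%). The full receptor held 85.6% of reads in replicate 2 and 78.8% in replicate 1, and the intervals of the libraries overlapped. Qk-204, the nuclear form QKI-5 in the usual nomenclature, led with 57.6% of reads in replicate 2 and 63.2% in replicate 1, against 36.4% and 34.2% for Qk-206, the form QKI-6. Over all spliced models the Qk-204 share was 64.0% of 680 reads in replicate 2 and 81.8% of 192 in replicate 1. Hnrnpa2b1 models differed only past the stop codon. The downstream exon held 10 of 132 reads in replicate 2 (7.58%) and 44 of 220 in replicate 1 (20.0%). This difference did not pass (unadjusted p = 0.00201, adjusted p = 0.174, Fisher's exact test). The upstream exon held 92.4% in replicate 2 and 80.0% in replicate 1. Over all spliced models it held 81.25% of 368 reads in replicate 2 and 73.7% of 456 in replicate 1.

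The other genes of this arrangement were Ak6, Eif4e2, Polr1d and Pnkd. Ak6 and Eif4e2 had 54.4% and 61.8% of the pair's reads downstream in replicate 2 and 64.8% and 56.8% in replicate 1. Polr1d and Pnkd had 28.3% and 38.5% downstream in replicate 2 and 18.1% and 24.4% in replicate 1. In Pnkd the upstream model codes for 142 codons and the downstream one for 360.

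Of the 10 genes with separate exons on 1 donor, Cdc37l1 and Ndufab1 passed the test of usage, which 0.772% of all 518 genes tested passed. Cdc37l1 encodes a relative of the Hsp90 co-chaperone Cdc37. Its upstream exon (Cdc37l1-201, chr19:29016006-29020237) took 43 reads of replicate 2 and 21 of replicate 1, while the downstream exon (Cdc37l1-204, chr19:29024804-29026681) took 24 of replicate 2 and 52 of replicate 1. The order was thus turned round between the libraries: the downstream exon held 31.2% (21.1 to 42.7) in replicate 2 and 59.8% (48.7 to 70.1) in replicate 1, a difference of -28.6 points (adjusted p = 0.0444, Fisher's exact test). The models code for 335 and 312 codons. The call did not hold without the read minimum, which brings 1127 genes into the family (adjusted p = 0.0966), nor with the deeper library thinned to the depth of the other (adjusted p = 0.112).

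Ndufab1, the mitochondrial acyl carrier protein and a subunit of respiratory complex I, has its stop codon before the last junction, so its exons change the 3′ untranslated region alone. The upstream exon (Ndufab1-203, chr7:122090056-122090963) took 280 reads of replicate 2 and 443 of replicate 1, while the downstream exon (Ndufab1-201, chr7:122085403-122088338) took 40 of replicate 2 and 24 of replicate 1. The upstream share was 87.2% (83.1 to 90.7) in replicate 2 and 94.7% (92.2 to 96.5) in replicate 1, a difference of -7.43 points (adjusted p = 0.0444, Fisher's exact test). Without the read minimum the adjusted p was 0.0966.

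Lamp2, Ppm1b and Cavin1 show the range of this arrangement. Lamp2 encodes a lysosomal membrane protein whose last exon sets the membrane anchor and the cytoplasmic tail. The muscle-enriched form LAMP-2B, Lamp2-202, took 98 reads of replicate 2 and 80 of replicate 1, while LAMP-2A, the receptor of chaperone-mediated autophagy, took 13 of replicate 2 and 12 of replicate 1. LAMP-2B therefore held 82.4% in replicate 2 and 85.1% in replicate 1, and both printed tails have 140 bases. Ppm1b, a magnesium-dependent protein phosphatase, was among the most-read genes, with 65.3% of 366 reads in replicate 2 and 66.9% of 257 in replicate 1 at the exon of the shorter protein, Ppm1b-202. Cavin1, a caveola coat gene, had most of its reads at a 96-base last exon of a model without a coding part, with 20 of 30 reads in replicate 2 and 49 of 59 in replicate 1. Lamp2 and Cavin1 were named after their values were seen.

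Tcf25 was the one gene with 3 last acceptors. In replicate 2 they held 44, 37 and 24 reads in the order of transcription, and in replicate 1 they held 40, 75 and 48. The first acceptor led in replicate 2 with 41.5% and the second in replicate 1 with 45.2%, with no call (adjusted p = 1, Fisher's exact test). Srsf10, a splicing regulator, had 44.4% of the pair's reads downstream in replicate 2 and 35.3% in replicate 1. Med25 and Cox16 had 15.4% and 63.2% in replicate 2 and 14.0% and 75.4% in replicate 1.

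Retained last introns included those of Glo1 and Ppp1cc. Glo1, the methylglyoxal-clearing enzyme glyoxalase 1, was one of the most-read genes, with 96.0% of reads in replicate 2 and 93.6% in replicate 1 at the intron-retaining Glo1-206. The annotated last exon of Glo1-206 has 9291 bases, but the tables hold no read ends, and how far the reads ran into it was not measured. Ppp1cc, a catalytic subunit of protein phosphatase 1, used the retained intron for 83.6% of reads in replicate 2 and 79.6% in replicate 1. That is the ubiquitous gamma1 form, whose printed tail reads through the donor, while the spliced testis-enriched gamma2 form held 18 reads in replicate 2 and 34 in replicate 1.

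Hras, Chpt1 and Dnajb2 were the retained-intron genes with the most even use. Hras, a small GTPase, has the same coding part in both models and used the retained form for 55.2% of reads in replicate 2 and 56.7% in replicate 1. Chpt1, a cholinephosphotransferase of phosphatidylcholine synthesis, used it for 53.7% of 281 reads in replicate 2 and 47.5% of 217 in replicate 1. Dnajb2, a neuronal and muscle co-chaperone, used the retained form, which codes for the longer of its proteins, for 44.2% in replicate 2 and 42.1% in replicate 1. Across the class, 9 of 16 genes kept the same coding part and 7 changed the stop codon.

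Among the remaining retained introns, the spliced form led in both libraries in Psmd11, Mat2a, Ankrd9, Znrf1, Lman1 and Sec14l1. Its share was 87.5%, 84.3%, 83.5%, 65.1%, 55.7% and 55.2% in replicate 2 and 86.1%, 81.7%, 89.9%, 81.2%, 68.2% and 72.8% in replicate 1. The retained form led in Optn, Dusp22 and Slc35a4, where the spliced share was 18.0%, 36.7% and 39.7% in replicate 2 and 13.6%, 39.1% and 39.7% in replicate 1. The introns of Slc35a4-206 are those of 3 annotated models of 312 to 2842 bases. Reads counted as its retained form may therefore come from shorter models, which was not tested. In Mettl26 the spliced share was 45.8% in replicate 2 and 63.3% in replicate 1, so the leading form differed.

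Alternative acceptors included the tandem sites printed above. In Rnf10, a RING finger gene, the upstream acceptor took 249 of 280 reads in replicate 2 (88.9%) and 241 of 270 in replicate 1 (89.3%). In Vgll2, a cofactor of TEAD transcription factors expressed in skeletal muscle, the same spacing of 3 bases gave a more even split, with 212 and 223 reads at the upstream and downstream acceptor in replicate 2 and 58 and 41 in replicate 1. Ctbp1 and Hoxd8 leaned to the upstream acceptor and Mapk9 to the downstream one, with 59.6%, 52.9% and 24.0% of reads at the upstream acceptor in replicate 2 and 55.9%, 59.5% and 30.8% in replicate 1. For Ctbp1 this rests on 146 reads in replicate 2 and 204 in replicate 1. Over all its spliced models, with 559 and 735 reads, the upstream acceptor held 85.9% in replicate 2 and 84.4% in replicate 1. In Cdc34, a ubiquitin-conjugating enzyme, the upstream acceptor held 85.1% in replicate 2 and 81.9% in replicate 1. Reads at acceptors so close together depend on how the aligner placed each junction, which was not tested.

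Mef2c, Cd34 and Cdv3 have acceptors further apart. In Mef2c, a transcription factor of muscle differentiation, the upstream acceptor adds 96 bases that code for its gamma domain, and it held 61 of 146 reads in replicate 2 (41.8%) and 37 of 96 in replicate 1 (38.5%). In Cd34, a surface protein of endothelial and satellite cells, the upstream acceptor gives the form with a truncated cytoplasmic tail, with 20 reads in replicate 2 and 13 in replicate 1. The full-length form held 63.6% in replicate 2 and 68.3% in replicate 1. In Cdv3 the leading acceptor differed between the libraries, with 18 of 44 reads at the downstream acceptor in replicate 2 and 16 of 29 in replicate 1. In Mlf2, Nde1 and Cyhr1 the downstream acceptor held 94.8%, 57.7% and 29.7% of the pair's reads in replicate 2 and 95.8%, 58.8% and 36.8% in replicate 1. The Cyhr1 order depended on the models counted: the upstream acceptor led with 63.4% of 71 reads in replicate 2 and 60.6% of 71 in replicate 1, but held 21.3% of 216 and 21.2% of 203 over all spliced models. In Mef2c the downstream acceptor held 47.3% of 450 reads in replicate 2 and 44.2% of 260 in replicate 1 over all spliced models, and no longer led. Mef2c, Cd34, Ctbp1, Hoxd8, Mapk9, Cdc34 and Ppp1cc were named after their values were seen.

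For usage, the reads at the leading acceptor of each gene were set against those at its other annotated last acceptors, by library, in a two-sided Fisher's exact test. The family was the 518 genes that had reads at 2 or more last acceptors and a minimum of 20 reads per library there. Of these, 4 genes, or 0.772%, had an adjusted p below 0.05. Tpm3, Cdc37l1 and Ndufab1 were 3 of them. A further demand of at least 10 points of difference left 3 of the 518 genes, or 0.579%, of which Tpm3 and Cdc37l1 were members of the set. The set holds the genes with the most reads at a second acceptor, so its share of calls was fixed in part by the choice of genes and is not read against that background. Without adjustment, 10 of the 64 genes had a p below 0.05, against 21 of the 518. The difference between the libraries in the leading share had a median size of 5.21 points, stayed under 5 points in 31 genes and passed 10 points in 21.

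**Figure D3:**
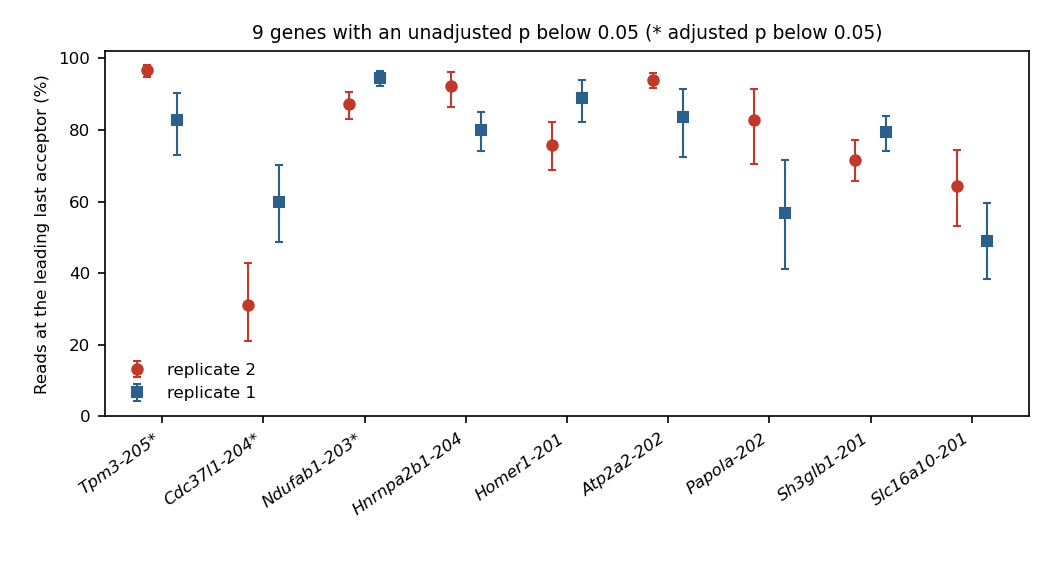
Share of reads at the leading last acceptor, in percent of a gene's annotated spliced reads, for 9 genes with an unadjusted p below 0.05; circles are replicate 2, squares replicate 1, bars are 95% Clopper-Pearson intervals, and an asterisk marks an adjusted p below 0.05. Tpm3 stands at 96.8% in replicate 2 and 82.9% in replicate 1, and Cdc37l1 shows the widest gap.

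At the level of whole genes, 6 of the 64 were higher in replicate 2 and 0 were lower, when a call needed a difference of 2-fold or more with an adjusted p under 0.05 (Fisher's exact test over 9032 genes, Benjamini-Hochberg, on reads of every model of a gene). Across all genes 8.24% were higher and 2.04% lower by this rule. The 6 genes were Atp2a2, Tpm3, Vgll2, Qk, Mef2c and B230354K17Rik, whose differences on the log2(CPM + 1) scale, replicate 2 minus replicate 1, were 3.20, 2.99, 2.48, 2.04, 1.01 and 1.28. The median log2 ratio of the 64 genes was 0.19, beside 0.19 over all genes tested. With TMM scaling, added after the data were seen, the median of all genes moved to 0.00, and 446 of the 9032 genes were higher and 376 lower, beside 744 and 184 without it. Under TMM, Mef2c was no longer called, and Ankrd9 was called lower.

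In Atp2a2 and Tpm3 the leading exon differed by a larger ratio between the libraries than the other exon. At the muscle exon of Atp2a2 the level was 439 CPM in replicate 2 and 37.1 CPM in replicate 1, while at the ubiquitous exon it was 28.1 CPM in replicate 2 and 7.29 CPM in replicate 1. At the muscle exon of Tpm3 the level was 459 CPM in replicate 2 and 45.1 CPM in replicate 1, while at the cytoplasmic exon it was 15.3 CPM in replicate 2 and 9.28 CPM in replicate 1. The slow-fibre markers, at 3410 CPM in replicate 2 and 216 CPM in replicate 1, moved the same way, and their part in these differences was not tested. In Vgll2 both acceptors stood apart in the same direction, with 181 and 190 CPM at the upstream and downstream acceptor in replicate 2 and 38.4 and 27.2 CPM in replicate 1.

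**Figure D4:**
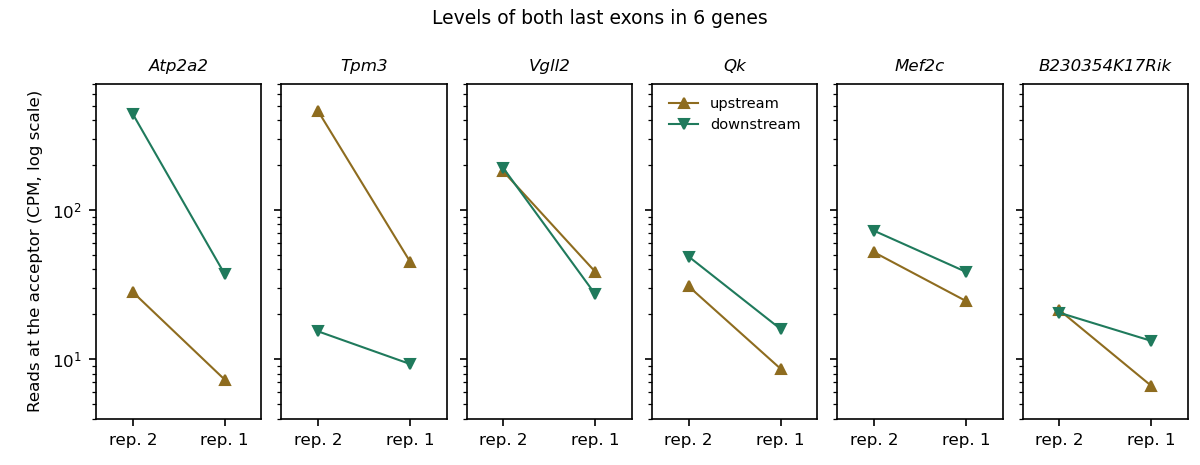
Level at the upstream (triangle up) and downstream (triangle down) last acceptor in the 6 genes that were higher in replicate 2, in CPM on a log scale, with replicate 2 left of replicate 1 in each panel and a line joining the libraries. The lines run far apart in Tpm3, where only the muscle exon passes 100 CPM in replicate 2, and close together in Vgll2.

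The acceptor of the longer model had a higher share of the pair in replicate 2 in 36 genes, a lower one in 27 and the same in 1. Where the models differed by over 1000 bases it was higher in 24 of 31 genes, with a median of 2.40 points, and where they differed by at most 1000 bases in 12 of 33, with a median of -2.61 points. Among the 21 genes whose models differed by under 500 bases it was higher in 10 and lower in 11. Lengths are those of the annotated models and not of the reads, and the length of the RNA in either library was not measured here. The split at 1000 bases was chosen after the values were seen, and it has no test.

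**Figure D5:**
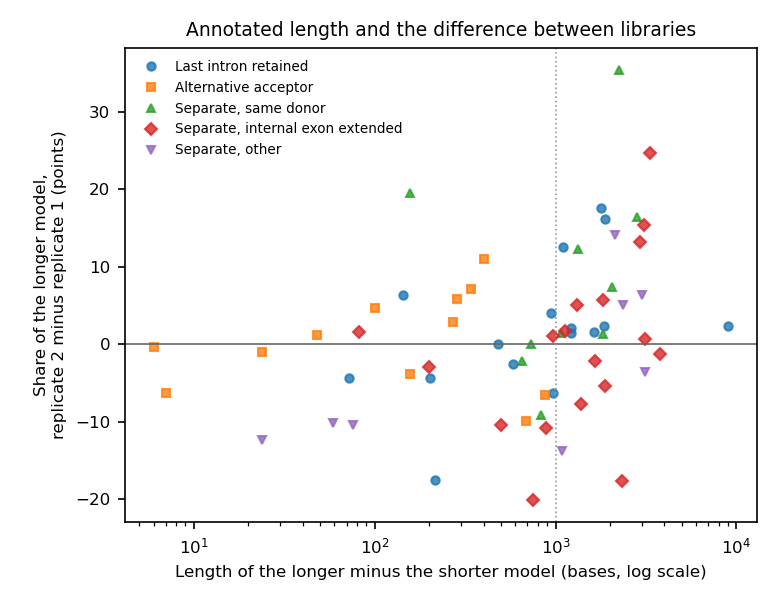
Difference between the libraries in the share of the longer model (replicate 2 minus replicate 1, in percentage points) against the difference in annotated length of the 2 models (bases, log scale), 1 point per gene, with the arrangement as symbol and a dotted line at 1000 bases. To the right of the line 24 of 31 points lie above zero, and to the left of it 12 of 33.

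Of all 11135 genes with spliced annotated reads, 0.575% were in the set and 10.5% had reads at several last acceptors. Of 59 contractile and Z-disc genes, 55 had spliced annotated reads, 10 had reads at several last acceptors and Tpm3 alone was in the set. Of 37 genes of calcium handling and excitation, 35 had reads, 9 had several acceptors and Atp2a2 alone was in the set. Of 49 genes of energy metabolism, 48 had reads, 8 had several acceptors and 0 were in the set. The share with several acceptors was 18.2%, 25.7% and 16.7% in the 3 lists, and no list was tested against all genes. A single read sufficed for a second acceptor, as in Ldha, with 0 reads there in replicate 2 and 1 in replicate 1. Its other acceptor held 6728 reads in replicate 2 and 11319 in replicate 1. Depth was not matched between the lists and all genes, so these shares are not read against the 10.5%. Tpm1, which codes for the alpha-tropomyosin of fast fibres and was named after its values were seen, had 14481 of its reads in replicate 2 (99.9%) and 35381 in replicate 1 (99.97%) at 1 last exon.

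Of 32 genes listed for cleavage and polyadenylation, the steps that cut the pre-mRNA and add the poly(A) tail, 30 were tested at the gene level. Beside the machinery itself, the list holds related genes such as Snrnp70, Pabpc1, Scaf4 and Cdk13. Cpsf1, a subunit of the complex that binds the AAUAAA signal, was higher in replicate 2, with 27.3 CPM in replicate 2 and 11.9 CPM in replicate 1 (a difference of 1.13 on the log2(CPM + 1) scale, with a Benjamini-Hochberg adjusted p = 0.0243 by Fisher's exact test). The other 29 did not pass and 0 were lower, against 8.24% higher and 2.04% lower over all genes. Of these 29, Ppp1cb, Wdr33, Cstf2t and Sympk had an adjusted p below 0.05 (Fisher's exact test) but were higher in replicate 2 by less than 2-fold. The median log2 ratio of the list was 0.38, beside 0.19 over all genes tested. The Cpsf1 call was lost with TMM or DESeq2 scaling. Papola was the one gene of this list in the set.

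AATAAA or ATTAAA, the main polyadenylation hexamers, stood on the transcript strand in the last 50 bases of 47 of 64 upstream models (73.4%) and 47 of 64 downstream models (73.4%). In 4769 other models with at least 10 reads at their last acceptor in each library, the share was 79.2%. By arrangement the share was lowest for extended internal exons, with 10 of 18 upstream models (55.6%) and 11 of 18 downstream ones (61.1%). Among the other separate exons, all 8 upstream models and all 8 downstream ones held a hexamer. These are letters of the annotation, and the sites used by the reads were not analysed here.

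Of 124 models with an annotated stop codon, 16 had it before the last junction. In 15 of them the stop lay at most 34 bases before the junction. Hnrnpa2b1-202 was the exception, with 157 bases, and it held 7.58% of the gene's annotated spliced reads in replicate 2 and 20.0% in replicate 1. A stop codon far upstream of a junction is a known trigger of nonsense-mediated decay, which was not tested here.

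At the edge of the rule, 7 genes had exactly 10 reads as the lowest count of their second acceptor and 4 genes had 9 and were left out. Just inside, Cavin1 had 10 reads in each library, Hnrnpa2b1 had 10 in replicate 2 and 44 in replicate 1, and Papola had 10 in replicate 2 and 18 in replicate 1. Just outside, Agap3 held 10 reads of replicate 2 and 9 of replicate 1, while Zxdc held 9 of replicate 2 and 15 of replicate 1. Assignment was uncertain for 3 genes: a last exon of Ak6 overlaps Taf9 on the same strand, both last exons of Cox16 overlap Gm20498, and Gm14391 belongs to a cluster of closely similar zinc finger genes. Gm14391 had 19 of 42 reads at its downstream exon in replicate 2 and 14 of 25 in replicate 1.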

How the data were processed

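The deposited values were raw read counts per transcript model, 1 table per library. The notes deposited beside them name a filtered mm10 alignment and the GENCODE M21 annotation, and the deposited annotations give TALON as the source of their models. Those sources name no aligner or filter setting. Exon coordinates are 1-based on mm10 (GRCm38), and the exons of all 129 models were identical in the reference annotation.

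Rows of annotated genes and annotated transcripts with at least 2 exons were kept, and spike-ins were left out. In the 64 genes these rows held 72.2% of all reads in replicate 2 and 74.0% in replicate 1. The most-read model stood for each acceptor, and 87 of 129 acceptors had reads of 1 annotated model. Tests were two-sided Fisher's exact tests with Benjamini-Hochberg adjustment in Python 3.11.15 with scipy 1.17.1, after tests on simulated data. CPM was computed from the deposited counts over the total reads of a library, and the gene-level test needed a summed minimum of 10 reads per gene. Scaling alternatives used edgeR 4.0.16 (TMM) and DESeq2 1.42.0 size factors. The genes named were the called ones, the 8 with most reads, the 8 with the highest second share, and the 10 most-read of the muscle lists. A few items that this rule names are not reported here. The genes, lists and tests were chosen with earlier results of these data known.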

Additional observations from a re-analysis of the deposited data

Results flagged for a closer look

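Last acceptors outside the annotation were looked for in the 64 genes among reads of unannotated spliced models. Of 69 such acceptors, 44 had 1 read over both libraries and 4 had at least 3 reads in each. Only 1 of the 69 had at least 10 reads in each library: in Ndufab1, chromosome 7, position 122091067, with 22 reads in replicate 2 and 21 in replicate 1. It lies 104 bases upstream of the leading annotated last acceptor. The reads equal 6.85% of the annotated spliced reads of Ndufab1 in replicate 2 and 4.49% in replicate 1, beside 40 and 24 reads at the annotated downstream exon.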

How the results depend on the processing

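The number of genes depended on the rule: 119 genes passed at 5 reads per acceptor, 24 at 20 reads, and 35 when acceptors with overlapping last exons were merged. A single library gave 77 genes without replicate 1 and 88 without replicate 2, with all 64 in both lists. Merging acceptors within 30 bases left 57 genes, and transcripts listed in both tables gave 63. Calls of usage numbered 3 in the main family, 1 (Tpm3) without a read minimum, where the family grew to 1127 genes, 2 with the deeper library thinned or with at least 10 points required, and 3 under the other 4 alternatives; no call changed direction. The median downstream share, 55.0% in the mean of the libraries, lay between 51.3% and 57.5% with a library left out. The longer model was higher in replicate 2 in 10 genes when only models differing by under 500 bases were kept. Calls in the cleavage and polyadenylation list were 0 of 30 with TMM, 0 of 30 with DESeq2 size factors and 2 of 24 with annotated transcripts only. In that last setting, 591 of all 7229 genes tested were higher in replicate 2 and 145 lower. Counting all spliced models with an annotated last acceptor moved the leading share of 4 of 17 named genes by more than the spread between the libraries, with changes between -8.37 and 4.22 points over the 17. Over all 64 genes the changes lay between -40.7 points in Cyhr1 and 27.4 points in Ctbp1, with a median size of 1.53 points, and 5 leading acceptors lost the lead; the cause was not tested. Usage could not be tested with a library left out. No paired analysis was possible because there is 1 group. Depth limits single genes, which had a median of 97.5 reads in replicate 2 and 94.5 in replicate 1.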
